A study of Homo sapiens with 11 samples.

Results

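The BCL2 family sets whether a cell keeps or loses the integrity of its outer mitochondrial membrane, and 10 of its genes were followed here through 30 min of exposure to an insecticide or a phorbol ester. The members are MCL1, BCL2, BCL2L1, BCL2L11, PMAIP1, BBC3, BAX, BAK1, BID and BCL2A1. They were picked by gene symbol from the authors' comparison tables, taking the row of largest mean where a symbol had several. Each symbol had a single row, which gave 10 of 44416 genes.

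In this family the anti-apoptotic proteins MCL1, BCL2, BCL-xL (BCL2L1) and BFL-1 (BCL2A1) hold the pore formers BAX and BAK (BAK1) in check. BH3-only proteins, here BIM (BCL2L11), NOXA (PMAIP1), PUMA (BBC3) and BID, relieve that restraint or activate the pore formers, which then release cytochrome c and start caspase activation. MCL1 is short-lived as RNA and as protein, and NOXA binds MCL1 and BFL-1 in preference to the other guardians. MCL1 and BCL2 are both well known for their part in the survival of T cells and of leukaemias.

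The cells were Jurkat, clone E6-1, a line established from a human T cell leukaemia and here a single clone. They were exposed for 30 min to the solvent DMSO, to 100 µM dieldrin, an organochlorine insecticide, in DMSO, or to 100 µM of the phorbol ester PMA, an activator of protein kinase C, in DMSO. The PMA dose is as labelled and lies far above those in common use. There were 3 poly(A)-enriched libraries in each of the 3 groups, and a further pair of libraries depleted of ribosomal RNA, 1 with DMSO and 1 with dieldrin. The values analysed here are the authors' comparisons of each treatment with DMSO, so a value for each library and its depth are not given, and the spread between libraries enters only through the authors' standard errors. Whether replicate libraries stem from separate cultures is not in the labels, and p-values therefore reflect a spread among libraries that can be technical. In a bulk sample, fewer cells that make an RNA and less of it per cell cannot be told apart.

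The T cell label was checked against marker genes. All 11 T cell markers found in the tables were between 43.5 and 834 CPM, where CPM means normalised counts per 1000000 summed over the whole table, and 1 CPM is a mean of 83.7 counts. The 4 myeloid markers lay between 0.0231 and 0.463 CPM, and of the 4 B cell markers CD79A alone passed 1 CPM, with 34.6. The summed level of the T cell markers was 3791 CPM with DMSO, 3760 with dieldrin and 3734 with PMA. COL1A1, a fibroblast marker, passed 1 CPM, and EPCAM, an epithelial marker, stood at 0.00915.

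MCL1 and PMAIP1 were the members that rose, and they rose with both agents. MCL1 went up to nearly the same level with dieldrin as with PMA, and PMAIP1 rose by less. Of the 10 members, all had an adjusted p in both of the authors' comparisons; with dieldrin 2 rose, 0 fell and 8 did not pass the threshold of 0.05. In the authors' deposited table of dieldrin, 1.28% of the 19280 genes tested were called higher, 1.02% lower and 2.3% in either direction. Genes tested are here those with an adjusted p, while 43328 genes had a p-value in each comparison. With PMA the counts were again 2 higher, 0 lower and 8 not called. In the authors' deposited table of PMA, 0.528% of the 17612 genes tested were called higher, 0.0908% lower and 0.619% in either direction. These PMA calls were 93 higher and 16 lower, and with the statistic divided by its own spread 322 higher and 179 lower, or 2.84% of the genes. Both comparisons share the DMSO libraries, so the counts are not independent of each other.

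The median unshrunken log2 change of the 10 members was 0.02 with dieldrin, against 0.00 over all genes tested. With PMA it was 0.01, against 0.00 over all genes tested. At an unadjusted p under 0.05 the count was 2 of 10 with dieldrin, against 8.36% of all genes tested, and 2 of 10 with PMA, against 3.73%.

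Promoter sequence was at hand for 9 of the 10 members, in 14 windows that run from 250 bases before to 50 bases after a RefSeq gene start on GRCh38.p14; MCL1 has no entry. Sequences of 3 genes are shown. PMAIP1 is the called member that has a window. BCL2 and BBC3 were not called and are shown as members whose windows hold a match to a motif searched here. BCL2L1, also not called, has a window with a match that is not shown. Capitals mark the motif matches.

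PMAIP1, chr18:59899746-59900045, plus strand: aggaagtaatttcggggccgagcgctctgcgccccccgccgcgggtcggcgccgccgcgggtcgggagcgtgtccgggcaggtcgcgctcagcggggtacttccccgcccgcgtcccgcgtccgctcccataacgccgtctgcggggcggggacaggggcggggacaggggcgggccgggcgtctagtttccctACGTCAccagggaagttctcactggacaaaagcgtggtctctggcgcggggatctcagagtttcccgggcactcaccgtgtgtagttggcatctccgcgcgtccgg

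BCL2, chr18:63319720-63320019, minus strand: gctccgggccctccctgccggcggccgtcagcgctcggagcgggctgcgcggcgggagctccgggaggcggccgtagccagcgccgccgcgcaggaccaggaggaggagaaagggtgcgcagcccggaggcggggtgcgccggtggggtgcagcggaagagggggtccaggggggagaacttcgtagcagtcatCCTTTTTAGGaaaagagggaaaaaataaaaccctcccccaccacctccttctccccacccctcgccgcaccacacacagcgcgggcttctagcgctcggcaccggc

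BBC3, chr19:47232618-47232917, minus strand: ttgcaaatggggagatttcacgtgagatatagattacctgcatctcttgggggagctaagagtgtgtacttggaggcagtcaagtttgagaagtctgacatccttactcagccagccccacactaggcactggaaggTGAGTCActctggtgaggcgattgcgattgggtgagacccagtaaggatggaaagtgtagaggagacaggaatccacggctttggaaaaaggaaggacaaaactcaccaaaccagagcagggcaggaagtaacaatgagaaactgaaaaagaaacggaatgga

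The motifs were searched on both strands. They were the cyclic AMP response element CRE (TGACGTCA), the AP-1 site (TGANTCA), the EGR site (GCGTGGGCG), the ETS site (CCGGAAGT), the CArG box bound by SRF, and the NF-kB site. In all 35116 promoter windows of the same length, a CRE was found in 1.85%, an AP-1 site in 7.71%, an EGR site in 0.795%, an ETS site in 4.14%, a CArG box in 1.29% and an NF-kB site in 11.3%. The PMAIP1 window held 0 matches to these. The capitals in PMAIP1 are a shortened CRE (TGACGT, read on the minus strand), which was searched after the sequence had been seen, lies at −56 to −51 from the gene start, is part of every full CRE and occurs in 7.98% of all windows. In BCL2 the capitals are a CArG box at −56 to −47, and in BBC3 an AP-1 site at −113 to −107. The only other match was an ETS site in 1 of the BCL2L1 windows, and the windows of BCL2L11, BID, BAX, BAK1 and BCL2A1 held none of the motifs. GC content was 71.3% in the PMAIP1 window, 70.7% in that of BCL2 and 48.0% in that of BBC3, against a median of 58.7% over all windows. Whether Jurkat cells use these starts was not tested, and a match is a run of letters, not a bound site.

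MCL1 (ENSG00000143384, hg19 chromosome 1, 150547032 to 150552066, minus strand) stood at an implied mean of 6826 normalised counts with DMSO. With dieldrin the implied mean was 20043 normalised counts and with PMA 19951. These group means follow from the overall mean and the unshrunken changes, so they carry no spread of their own. They assume that the overall mean runs over the 9 libraries, which the files do not state. The 2 treated groups lay close together and far above DMSO.

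For MCL1 with dieldrin, the authors' deposited table gives a shrunken change of 1.43 (log2, standard error 0.0629), an unshrunken fold of 2.94 and a Wald statistic of 22.8. With PMA the authors' deposited table gives MCL1 1.42 (log2, standard error 0.0629), an unshrunken fold of 2.92 and an adjusted p of 6.60e-110. The 95% interval of the shrunken change of MCL1 was 1.31 to 1.55 with dieldrin and 1.30 to 1.55 with PMA. By p-value MCL1 ranked 3 in each comparison.

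MCL1 differed from most of the genes that rose in how high it already stood. Its implied DMSO level of 6826 normalised counts compares with a median of 588 over the 246 genes called higher with dieldrin and of 1192 over the 93 called higher with PMA. Ordered by unshrunken fold, it ranked 63 of the 246 with dieldrin and 23 of the 93 with PMA. Ordered by the gain in implied normalised counts over all genes, it ranked 15 with dieldrin, with 13217 counts gained, and 7 with PMA, with 13124 gained.

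**Figure D1:**
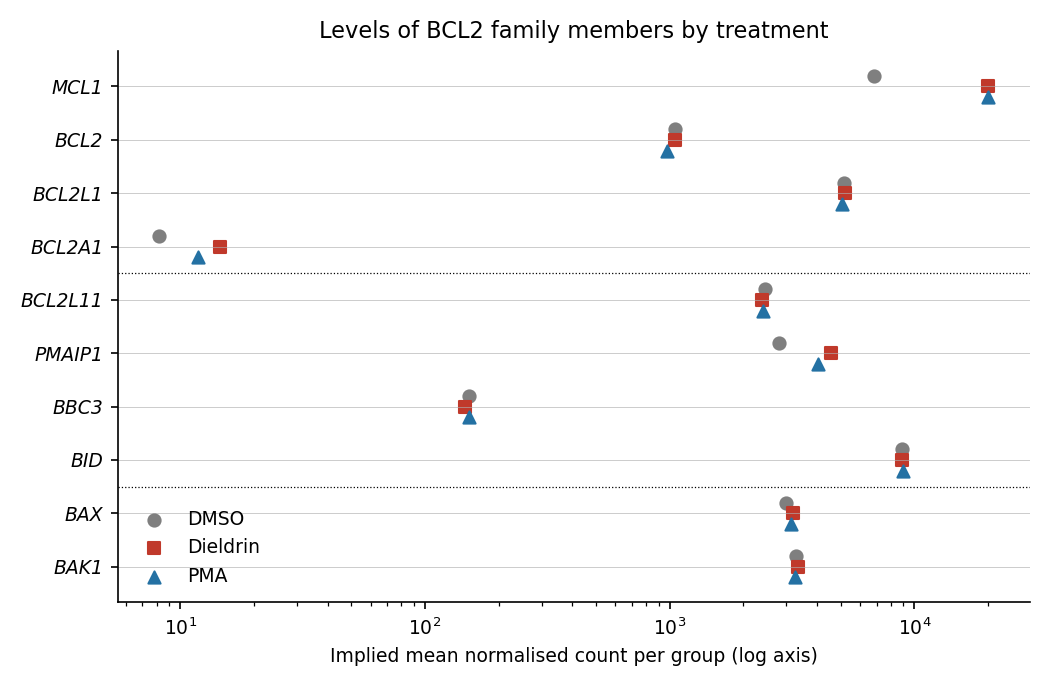
Implied mean normalised count (log axis) of each member with DMSO (grey circles), dieldrin (red squares) and PMA (blue triangles); dotted lines part the anti-apoptotic, BH3-only and pore-forming members. MCL1 moves from 6826 to 20043 and 19951 and PMAIP1 from 2806 to 4578 and 4045, while BCL2A1, which did not pass the test, has 8.21 to 14.5 counts.

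The other anti-apoptotic members did not pass the test. BCL2L1, whose main product BCL-xL guards the outer mitochondrial membrane, had implied levels of 5156 normalised counts with DMSO, 5211 with dieldrin and 5062 with PMA. The 95% interval of its shrunken log2 change ran from −0.14 to 0.16 with dieldrin and from −0.17 to 0.13 with PMA. BCL2, the founding member of the family, had 1048 normalised counts with DMSO, 1054 with dieldrin and 979 with PMA, with intervals of −0.17 to 0.18 and −0.26 to 0.09. These intervals lie well below the change of MCL1.

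BCL2A1, a known NF-kB target in lymphocytes, was barely present. Its implied levels were 8.21 normalised counts with DMSO, 14.5 with dieldrin and 11.8 with PMA, and its overall level was 0.138 CPM. BCL2A1 had in the authors' deposited table unshrunken log2 changes of 0.82 with dieldrin and 0.53 with PMA, shrunken to 0.10 and 0.06, and adjusted p-values of 0.922 and 1.00. At this level the change was not detectable, and its shrunken interval is set mostly by the shrinkage.

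PMAIP1 (ENSG00000141682, hg19 chromosome 18, 57567180 to 57571538, plus strand) encodes NOXA, a BH3-only protein with a preference for MCL1 and BFL-1. Its implied level was 2806 normalised counts with DMSO, 4578 with dieldrin and 4045 with PMA. PMAIP1 rose with dieldrin in the authors' deposited table, with a shrunken change of 0.51 (log2, standard error 0.104), an unshrunken fold of 1.63 and an adjusted p of 0.000119. With PMA the authors' deposited table gives PMAIP1 0.38 (log2, standard error 0.104), an unshrunken fold of 1.44 and an adjusted p of 0.0458. The call with PMA lies close to the threshold, and it was lost, with an adjusted p of 0.113, when the adjustment covered all genes with a p-value, which called 0.201% of them.

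The remaining BH3-only members did not pass the test. BID, which links death receptors to mitochondria once cleaved, was the highest of them at 8939 normalised counts with DMSO, 8881 with dieldrin and 8979 with PMA. BCL2L11, which encodes BIM and is controlled by ERK and FOXO signalling, had 2453, 2381 and 2408 normalised counts in the same order. BBC3, which encodes the p53 target PUMA, had 151, 145 and 152 normalised counts. The 95% intervals of their shrunken log2 changes lay between −0.25 and 0.23 over both agents, the widest being those of BBC3. For BBC3 the shrinkage kept 0.448 of the unshrunken change with dieldrin and 0.434 with PMA, so its intervals are narrowed by it.

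The pore formers also stayed short of the threshold. BAX had implied levels of 2989 normalised counts with DMSO, 3202 with dieldrin and 3139 with PMA. BAK1 had 3267, 3341 and 3240. The 95% interval of the shrunken change of BAX ran from −0.06 to 0.23 with dieldrin and from −0.08 to 0.21 with PMA. For BAK1 it was −0.13 to 0.19 with dieldrin and −0.17 to 0.15 with PMA. Over the 7 uncalled members of at least 1 CPM, these intervals reached from 0.841-fold to 1.18-fold with dieldrin and from 0.837-fold to 1.17-fold with PMA. Those of BBC3 are narrowed by the shrinkage, so larger changes of that gene are not excluded.

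**Figure D2:**
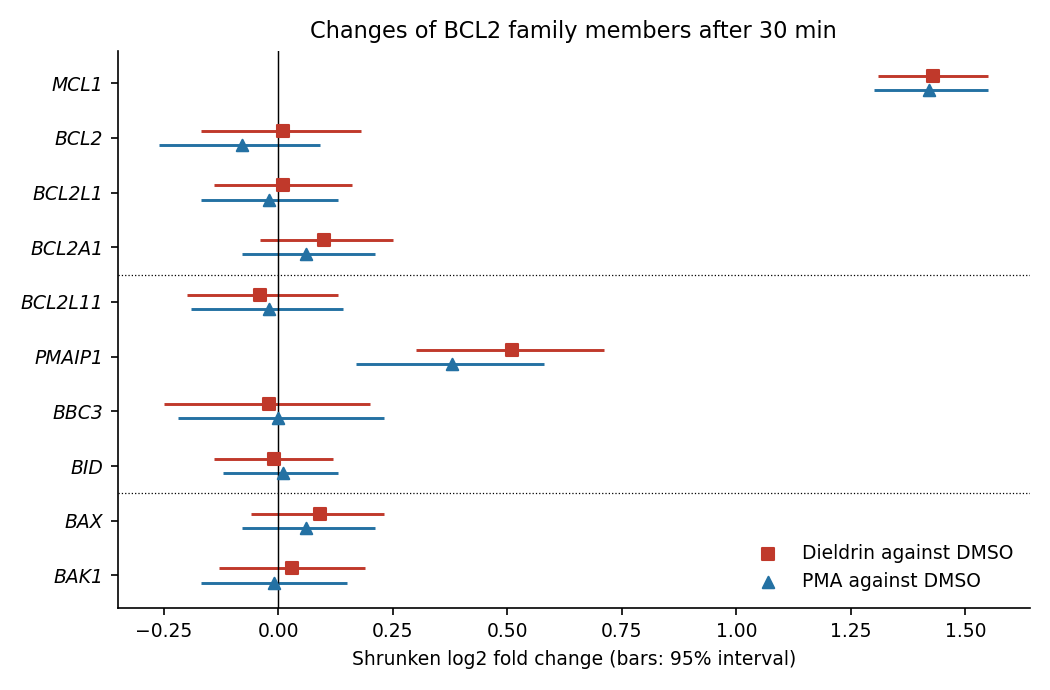
Shrunken log2 fold change against DMSO (horizontal axis) of each member with dieldrin (red squares) and PMA (blue triangles), with bars for the 95% interval from the authors' standard error. The intervals of MCL1 (1.31 to 1.55 and 1.30 to 1.55) and PMAIP1 (0.30 to 0.71 and 0.17 to 0.58) lie above 0, and those of the other 8 members include 0.

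Levels of different genes were compared per kb of exon, using the union of exons of each gene in GENCODE v29. With DMSO, MCL1 and BCL2L1 stood at 1562 and 1556 implied normalised counts per kb, BCL2 at 89.1 and BCL2A1 at 7.54. With dieldrin MCL1 reached 4586 per kb and with PMA 4564, while BCL2L1 stood at 1572 and 1527. The share of MCL1 in the summed level per kb of the 4 anti-apoptotic members was 48.6% with DMSO, 73.2% with dieldrin and 73.8% with PMA. That sum went from 3214 per kb with DMSO to 6261 with dieldrin and 6186 with PMA.

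Among the BH3-only members BID led with DMSO, at 2011 implied normalised counts per kb, followed by PMAIP1 at 1255, BCL2L11 at 368 and BBC3 at 47.5. With dieldrin PMAIP1 stood at 2048 per kb beside 1998 for BID, and with PMA at 1810 beside 2020. The share of PMAIP1 in the 4 was 34.1% with DMSO, 46.0% with dieldrin and 42.7% with PMA. BAK1 and BAX stood at 1477 and 1155 per kb with DMSO. No spread between libraries can be given for these levels, so the order of close neighbours (MCL1 and BCL2L1 with DMSO, PMAIP1 and BID with dieldrin, BAK1 and BAX) is not established. With the length of the longest transcript in place of the union of exons, BCL2L1 stood above MCL1 with DMSO (1976 against 1736 per kb), BAX stood above BAK1 in each group, and PMAIP1 stayed below BID with dieldrin (2350 against 3560 per kb). Both MCL1 and BCL2L1 make splice forms of opposite effect on survival, and values per gene do not separate them.

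**Figure D3:**
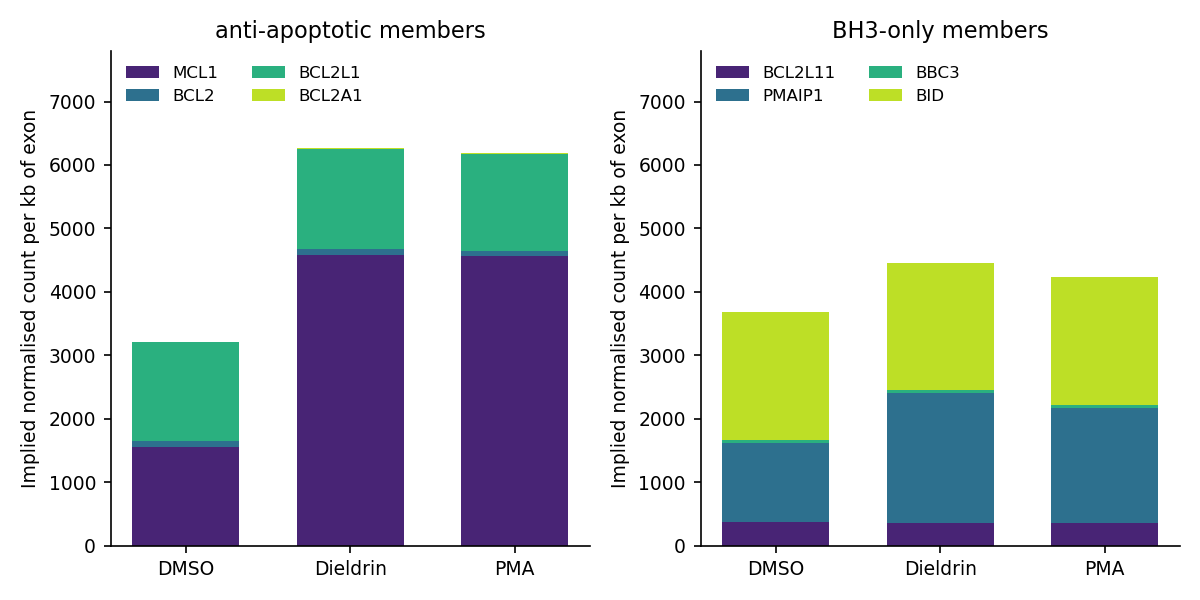
Implied normalised counts per kb of exon, stacked by gene, for the 4 anti-apoptotic members (left) and the 4 BH3-only members (right) with DMSO, dieldrin and PMA. The MCL1 part of the left bars goes from 1562 to 4586 and 4564, and the PMAIP1 part of the right bars from 1255 to 2048 and 1810.

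Dieldrin and PMA were compared directly through the difference between their shrunken log2 changes. None of the 10 members passed, at an adjusted p under 0.05 or at an unadjusted p under 0.05 in the normal two-sided test, which 2.71% of all genes tested reached, while 0.494% of the 17612 genes tested were called, 0.261% higher with dieldrin and 0.233% lower. The difference for MCL1, dieldrin minus PMA, was 0.01 with a 95% interval of −0.17 to 0.18. The interval is narrow beside the change of 1.43 itself. For PMAIP1 the difference was 0.13 with an interval of −0.16 to 0.42 and an unadjusted p of 0.375. The interval for PMAIP1 includes a larger rise with either agent. The intervals of the other members of at least 1 CPM lay between −0.35 and 0.34.

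Genes whose changes lay nearest to those of MCL1 were looked for among the 59 other genes of at least 1 CPM called in both comparisons, by the distance between their pairs of shrunken log2 changes. They were DUSP2, a phosphatase of MAP kinases, at a distance of 0.329, NFKBIZ, an atypical IkB protein, at 0.369, and IER3, an early survival gene, at 0.392. In the authors' deposited table the shrunken changes with dieldrin and PMA were 1.34 and 1.74 for DUSP2, 1.13 and 1.64 for NFKBIZ, and 1.5 and 1.81 for IER3. All 3 had a larger value with PMA than with dieldrin, whereas the values of MCL1 were 1.43 and 1.42. Their unshrunken folds in the authors' deposited table all exceeded those of MCL1. They were 5.55 and 8.54 for DUSP2, 5.04 and 8.74 for NFKBIZ, and 4.32 and 5.71 for IER3, beside 2.94 and 2.92 for MCL1. The nearness to MCL1 therefore holds on the shrunken scale only. Nearest to PMAIP1 were SPRY2, an inhibitor of receptor tyrosine kinase signalling, at 0.0447, CCNL1, a cyclin of RNA splicing, at 0.0578, and the small nucleolar RNA gene SNORD14E at 0.0671. SPRY2 had in the authors' deposited table unshrunken folds of 1.44 with dieldrin and 1.32 with PMA and CCNL1 of 1.43 and 1.38 and SNORD14E of 4.30 and 3.95, beside 1.63 and 1.44 for PMAIP1. The likeness rests on 2 comparisons that share their DMSO libraries.

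Other genes of the apoptosis pathway were read from 5 lists, together 56 genes, of which 52 had an adjusted p in each comparison and count as tested. With dieldrin 0 of the 52 passed in the authors' test, against 2.3% of all genes called. At an unadjusted p under 0.05 there were 2 of the 52 with dieldrin, BIRC3 and HUWE1, against 8.36% of all genes tested. With PMA 1 rose and 0 fell, against 0.619% of all genes called. The median unshrunken log2 change of the 52 genes was 0.000 with dieldrin and 0.021 with PMA, against 0.002 and −0.004 over all genes tested.

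The gene that rose was BIRC3, which encodes cIAP2, a ubiquitin ligase and NF-kB target of the inhibitor of apoptosis family. Its implied level was 2411 normalised counts with DMSO, 3471 with dieldrin and 6024 with PMA. For BIRC3 with PMA, the authors' deposited table gives a shrunken change of 0.90 (log2, standard error 0.109, adjusted p 1.87e-13), and with dieldrin 0.35 (adjusted p 0.0632). The dieldrin value passed the threshold, with an adjusted p of 0.0479, when only genes of at least 1 CPM were adjusted, of which 3.21% were called. The difference of BIRC3, dieldrin minus PMA, was −0.55 (standard error 0.155), and its adjusted p of 0.0681 missed the threshold in the normal two-sided test. Of the 6 inhibitor of apoptosis genes tested, the others, among them the caspase inhibitor XIAP and the mitotic gene BIRC5 (survivin), were not called with either agent.

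In the list of further BCL2 family genes, 12 of 13 were tested and 0 were called with either agent, also at an unadjusted p under 0.05. It holds the BH3-only genes BAD, BIK, BMF and HRK and the guardian gene BCL2L2 (BCL-w). BIK had implied levels of 3782 normalised counts with DMSO, 3912 with dieldrin and 4083 with PMA, and BAD had 3073, 3061 and 2979. BMF, an anoikis gene, had 158, 114 and 140. HRK, with 21.6, 15.4 and 22.3, stood at 0.236 CPM. The unshrunken log2 changes of the 12 genes ran from −0.49 to 0.62 with dieldrin and from −0.19 to 0.61 with PMA, and the extremes were genes under 1 CPM.

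In the list of mitochondrial death steps, 14 of 14 genes were tested and 0 were called with either agent, also at an unadjusted p under 0.05. CYCS, which encodes cytochrome c, had 39647 implied normalised counts with DMSO, 42746 with dieldrin and 41748 with PMA. APAF1, the scaffold of the apoptosome, had 648, 741 and 708. Of 11 death receptor pathway genes tested 0 were called, also at an unadjusted p under 0.05. FAS had 1506, 1556 and 1647 normalised counts in the 3 groups, and CFLAR, the inhibitor of caspase-8 activation, 1282, 1312 and 1255.

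The list of MCL1 protein turnover had 9 of 10 genes tested and 0 called with either agent. HUWE1, the ubiquitin ligase also named MULE, had 15539 implied normalised counts with DMSO, 13578 with dieldrin and 15136 with PMA. By the authors' deposited table its unadjusted p with dieldrin was 0.0435 and its adjusted p 0.559. USP9X, the deubiquitinase of MCL1, had 4852, 4440 and 4896 normalised counts. With PMA 0 of the 9 passed at an unadjusted p under 0.05. Protein levels and protein stability were not measured.

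**Figure D4:**
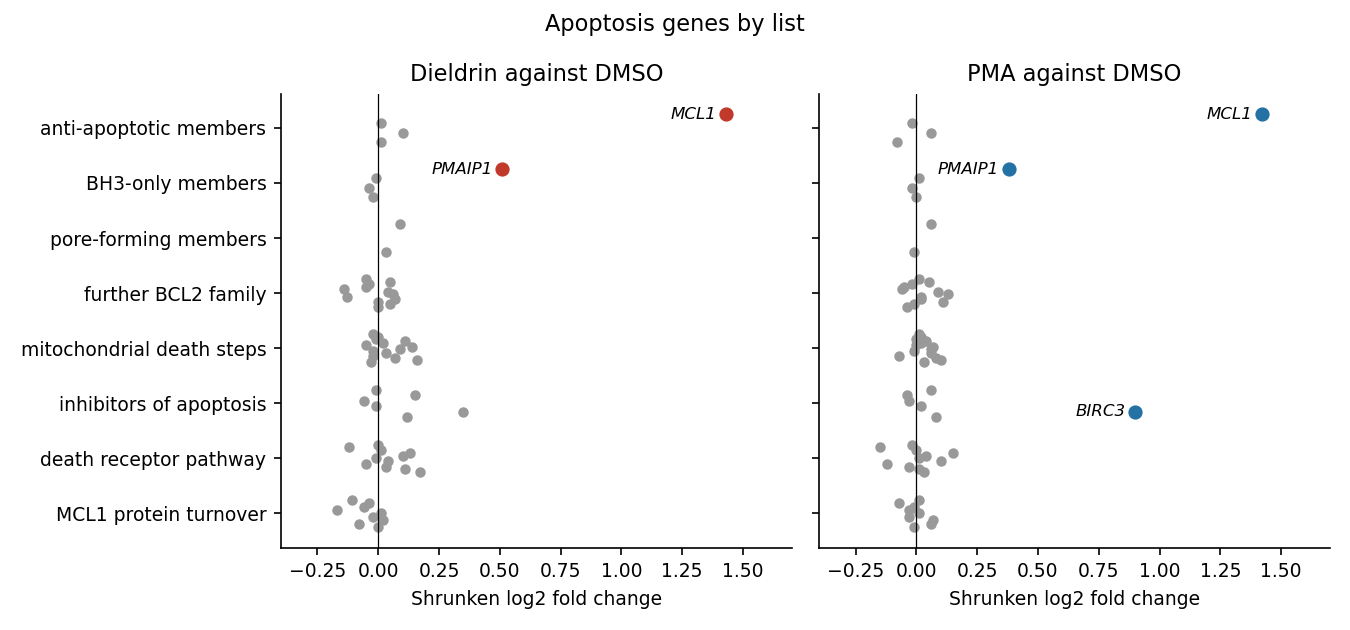
Shrunken log2 fold change (horizontal axis) of each tested member and listed gene, by list, with dieldrin (left) and PMA (right); coloured points have an adjusted p under 0.05 and are named, grey points do not. MCL1 at 1.43 and 1.42 stands apart in both panels. PMAIP1 at 0.51 and 0.38 is also named in both, and BIRC3 at 0.90 with PMA. With dieldrin BIRC3 is grey at 0.35, near PMAIP1.

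The genes beside the called members did not pass the test. The closest genes of at least 1 CPM on either side of MCL1 are ENSA, 21.3 kb away, and ECM1, 60.8 kb away. In the authors' deposited table ENSA had unshrunken log2 changes of 0.08 with dieldrin and 0.02 with PMA, and ECM1 of 0.08 and 0.11, with adjusted p-values of 1.00 throughout. The nearest such genes to PMAIP1 are 540 kb (LMAN1) and 2139 kb (PIGN) away and were not called. Neither MCL1 nor PMAIP1 overlaps another gene of the table. Beside BID, whose own change did not pass, the long noncoding RNA gene LINC00528 lies 2.55 kb upstream of its start and runs the opposite way. LINC00528 in the authors' deposited table fell by 0.68 on the shrunken log2 scale with dieldrin (standard error 0.0839, adjusted p 2.25e-13) and by 0.40 with PMA (standard error 0.0835, adjusted p 0.000535). ZBTB9, the neighbour of BAK1 at a distance of 115 kb, fell with dieldrin in the authors' deposited table, with an unshrunken log2 change of −0.31 and an adjusted p of 0.00113. These neighbours were named for their position and, in the last 2 cases, for values that had been seen.

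Sites of divergent transcription, places where RNA was read on both strands pointing apart, were listed by the authors for the 2 libraries depleted of ribosomal RNA. There was 1 library per treatment, so nothing here was tested. The DMSO list held 113689 sites with a median length of 254 bp and the dieldrin list 118474 with a median of 255 bp, on hg19 and without scores. Within 10 kb of a member's start or in its body lay 110 DMSO sites and 139 dieldrin sites, of which 44 and 57 lay in the BCL2L1 window. A gene on the opposite strand, RP11-243J16.7, overlaps BCL2L1, and KDSR lies 7.60 kb from BCL2. Some of the sites therefore lie in other genes as well. Of the 110 DMSO sites 73 overlapped a dieldrin site by at least 1 bp, and of the 139 dieldrin sites 76 overlapped a DMSO site. A site lay within 1 kb of the start at 8 of the 10 members with DMSO and at 7 with dieldrin. BCL2A1 lies under 1 CPM and had 0 sites, so these were 8 and 7 of the 9 members of at least 1 CPM. The shares over the 12853 genes of at least 1 CPM were 77.0% and 76.9%.

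At MCL1 the DMSO list held 13 sites and the dieldrin list 12 in a window of 20001 bp. They covered 30.6% of the window with DMSO and 37.2% with dieldrin, while the summed length of all sites was 38.5 Mb and 40.7 Mb. With DMSO a site of 169 bp ended 64 bp upstream of the MCL1 start (chr1:150552130-150552298) and a site of 882 bp began 15 bp downstream of it (chr1:150551170-150552051). With dieldrin 1 site of 1112 bp spanned the start, from 185 bp upstream to 926 bp downstream (chr1:150551140-150552251). The reverse was listed at BCL2, where a DMSO site spanned the start, from 34 bp upstream to 409 bp downstream, and the nearest dieldrin sites ended 57 bp upstream and began 105 bp downstream. In all, 4 of the 10 members had a site over the start with DMSO (BCL2, BCL2L1, BAX and BAK1) and 5 with dieldrin (MCL1, BCL2L1, BID, BAX and BAK1). Of all genes of at least 1 CPM, a set that leaves out BCL2A1 among the members, 37.9% had one with DMSO and 37.2% with dieldrin.

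At PMAIP1 both lists held a single site before the start. It ran from 385 to 20 bp upstream with DMSO and from 337 to 22 bp upstream with dieldrin, so the 2 sites overlapped. Sites covered 3.86% of the PMAIP1 window with DMSO and 1.66% with dieldrin, and at BBC3 10.3% and 4.56%. The sites lie on hg19 and the printed window on GRCh38.p14, so they were not placed on each other. BCL2A1, the member of lowest level, had 0 sites in either list, and BBC3 had 5 in each, of which 0 lay within 1 kb of its start.

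**Figure D5:**
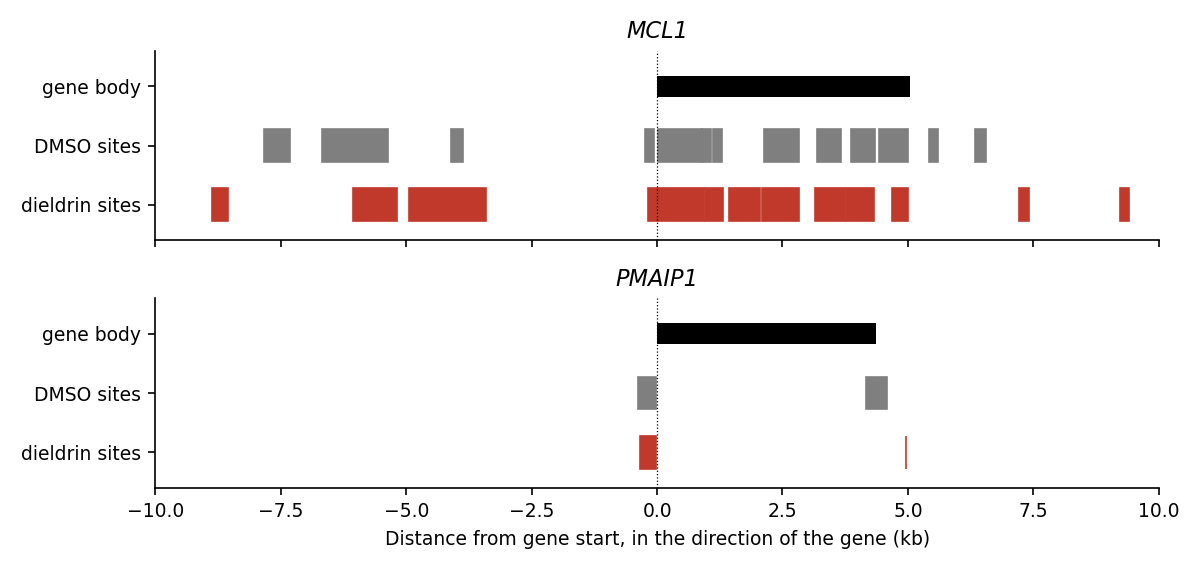
Sites of divergent transcription within 10 kb of the starts of MCL1 (top) and PMAIP1 (bottom), in kb from the start in the direction of the gene; black bars are gene bodies, grey bars the DMSO sites and red bars the dieldrin sites. The dieldrin list has a site across the MCL1 start, from 185 bp before to 926 bp after it, where the DMSO list has 2 separate ones; at BCL2, not drawn, the DMSO list has the site across the start.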

How the data were processed

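RNA of Jurkat cells was sequenced in 9 poly(A)-enriched and 2 ribosomal RNA-depleted libraries. STAR, edgeR and hg19 are named by the submitters' processing notes; whether edgeR made the deposited comparisons is not certain, since shrunken changes with Wald statistics are not its usual output. The counter, its use of strand and the annotation were not given, so near-identical or overlapping genes carry uncertain shares of reads. BAK1 has pseudogene copies. Per the file headers, the authors deposited for each treatment the mean of normalised counts (a signal), log2 changes against DMSO with and without shrinkage, the standard error and Wald statistic (scores), and p-values before and after adjustment. The site lists the authors deposited hold positions only (no value or score), printed here counted from 1.

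No value per library was at hand, so no count model was fitted and depth is unknown. Group means combine each unshrunken change with the overall mean, which is identical in both comparisons and was assumed to run over the 9 libraries; intervals are the shrunken change with a normal 95% range. Dieldrin against PMA used the difference of shrunken changes, both standard errors combined in quadrature, a normal test and Benjamini-Hochberg adjustment over 17612 genes; the covariance from shared DMSO libraries was left out, which enlarges the error. Lengths came by gene ID from GENCODE v29 and promoters by symbol from RefSeq on GRCh38.p14. Python 3.11.15, numpy 2.4.6, pandas 2.3.3 and scipy 1.17.1 were used, and the steps were tested on simulated data. TRBC1 was the 1 listed gene not found.

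The members, lists, motifs and settings were chosen with earlier results of these data known. Named genes were the members, the called genes of each list (up to 3 of smallest p per comparison) and the 3 genes nearest to MCL1 and to PMAIP1; list genes named besides, and the shortened CRE, were chosen after values or sequence were seen. Alternatives were other thresholds, adjustments, filters, a rescaled statistic, lengths and site windows.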

Additional observations from a re-analysis of the deposited data

How the results depend on the processing

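With dieldrin 2 members were called under each of 5 alternatives. With PMA 2 were called, and 1 at a threshold of 0.01 or when all genes with a p-value were adjusted; PMAIP1 was the one lost, with adjusted p-values of 0.0458 and 0.113. Of the members 0 differed between dieldrin and PMA under each of 3 alternatives (unshrunken changes, all genes with a p-value, and genes of at least 1 CPM). The smallest unadjusted p of a member was 0.375 in the normal two-sided test, so adjusting over other genes could not have added one. Unshrunken changes rescale a change and its error together, so that alternative could hardly differ either. Taking all table entries of a symbol could change nothing, since each had 1. Of the other listed genes 0 were called with dieldrin, and 1, BIRC3, at a threshold of 0.1, at 1 CPM or more, and with the statistic divided by its own spread (adjusted p 0.0632, 0.0479 and 0.0243). The site counts of 110 with DMSO and 139 with dieldrin were 14 and 12 within 1 kb of the start and 210 and 256 within 50 kb of it or in the body; shared sites, 73 and 76, were 35 and 35 when the overlap had to cover 50% of both. With the longest transcript as length, the share of MCL1 with DMSO was 45.0% of its class, and that of PMAIP1 25.8%, 36.5% and 33.4% with DMSO, dieldrin and PMA. The search for a CRE at PMAIP1 gave 0 matches, and 1 with the shortened motif, chosen after the sequence was seen. Calls over all genes also moved: with the rescaled statistic 501 genes were called with PMA in place of 109, and at a threshold of 0.01 286 were called with dieldrin in place of 443. Genes called in either direction were 0.822% to 3.21% with dieldrin and 0.201% to 2.84% with PMA over the alternatives. The cause was not tested. No paired analysis was possible because the deposited comparisons hold no value per library; leaving out single libraries was not run for the same reason. Depth per library is unknown, and BCL2A1 lies where changes of its size were not detectable.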
